A study of Mus musculus with 2 samples.

Results

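The interferon-stimulated genes and GTPases described here are 38 of the 31053 genes in the deposited tables, found by symbol from a list of names. They comprise 7 immunity-related GTPases (IRG: Iigp1, Tgtp1, Tgtp2, Igtp, Irgm1, Irgm2 and Ifi47) and 9 guanylate-binding proteins (GBP: Gbp2 to Gbp10). The other members are 17 effectors of the type I interferon response and 5 transcription factors (Irf1, Irf7, Irf8, Irf9 and Stat2). All 38 symbols were found in both libraries. The type I effectors were Isg15, Isg20, Ifit1, Ifit2, Ifit3, Oasl1, Oasl2, Oas1a, Mx1, Bst2, Ifi27l2a, Usp18, Rtp4, Zbp1, Ifi35, Xaf1 and Parp14.

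The study measured transcripts of single innate lymphoid cells (ILCs) from the lamina propria of the small intestine of C57BL/6 mice. Cells that were live, CD45+, CD90.2+ and CD127+ and lacked lineage markers, CD3 and TCRβ were sorted from 4 WT and 4 Zfp36-/- mice. They were pooled by genotype, which gave 1 WT library and 1 knockout library. The protein product of Zfp36, tristetraprolin or TTP, binds AU-rich elements in transcripts and speeds their decay. The knockout mice were Zfp36-deficient as whole animals, so the deficiency was not restricted to ILCs. The animals' ages and the deleted part of the gene are not given in the sources used here.

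Type II interferon (interferon-gamma) signals through the receptor chains Ifngr1 and Ifngr2 to factors that bind gamma-activated sites (GAS). Type I and type III interferons activate a complex with Stat2 and Irf9 that binds interferon-stimulated response elements (ISRE). The IRG and GBP GTPases are known above all as interferon-gamma targets that coat and break the vacuoles of intracellular pathogens. Ifit, Oas and Mx proteins, which recognise viral RNA or block viral replication, are the classical type I targets. Most of these genes respond to both kinds of interferon to some degree.

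The sequences before the gene starts are shown for the 2 kinds of interferon-responsive motif they hold. Promoter windows from RefSeq (build GRCm38.p6, 250 bases before to 50 after the start) were found for 26 of the 38 members, 10 of them GTPases and 11 type I effectors. They were searched on both strands for GAAANNGAA, a core of the ISRE, and TTCNNNGAA, a core of the GAS; matches of the 2 patterns may overlap. The ISRE core was in 9 of 10 GTPase genes and in 5 of 11 type I effectors (45.5%), against 9.76% of all 27025 genes with an entry. The GAS core was in 6 of 10 GTPase genes and 5 of 11 type I effectors (45.5%), against 9.55% of all genes. Windows of 150 bases are printed for 3 GTPases and 2 type I effectors, with matches in capitals: Igtp (chr11:58199406-58199555, plus strand), Tgtp2 (chr11:49064213-49064362, minus strand), Gbp7 (chr3:142530186-142530335, plus strand), Isg15 (chr4:156200819-156200968, minus strand) and Ifit1 (chr19:34640721-34640870, plus strand).
Igtp: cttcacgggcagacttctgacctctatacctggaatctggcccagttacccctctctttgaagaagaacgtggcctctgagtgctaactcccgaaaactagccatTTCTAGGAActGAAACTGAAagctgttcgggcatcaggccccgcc
Tgtp2: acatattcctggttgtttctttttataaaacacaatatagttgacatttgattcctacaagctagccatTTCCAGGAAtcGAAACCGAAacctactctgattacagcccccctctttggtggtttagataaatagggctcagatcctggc
Gbp7: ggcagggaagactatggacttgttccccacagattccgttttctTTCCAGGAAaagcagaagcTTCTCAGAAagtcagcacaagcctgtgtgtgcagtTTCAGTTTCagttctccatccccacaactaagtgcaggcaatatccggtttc
Isg15: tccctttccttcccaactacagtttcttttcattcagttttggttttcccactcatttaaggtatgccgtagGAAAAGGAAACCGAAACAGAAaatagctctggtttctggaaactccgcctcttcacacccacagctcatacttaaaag
Ifit1: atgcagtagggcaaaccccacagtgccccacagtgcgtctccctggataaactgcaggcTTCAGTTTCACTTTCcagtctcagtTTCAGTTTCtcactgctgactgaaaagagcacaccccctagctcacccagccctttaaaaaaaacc

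In Igtp and Tgtp2 a GAS core was followed after 2 bases by an ISRE core. That arrangement, looked for after the printed windows had been seen, was in 4 of 10 GTPase genes (Igtp, Irgm2, Tgtp1 and Tgtp2). It was in 0 of 11 type I effectors and in 8 of all 27025 genes, among them Adar, a type I target outside the members. The matches of Igtp and Tgtp2 were given in advance, as the arrangement was taken from them, and Tgtp1 is a near-identical copy of Tgtp2. Of the GTPases, Iigp1, Gbp4, Gbp6, Gbp8, Gbp9 and Gbp10 had no promoter entry. Gbp7 had 2 GAS cores and an ISRE core further apart. Isg15 and Ifit1 each had 3 ISRE cores, overlapping in part, and 0 GAS cores. A match describes these letters only and does not show that a factor was bound.

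The WT library held 3593 cell barcodes with 24721524 UMIs and the knockout library 3522 with 27733804. After filtering, 3352 WT and 3302 knockout cells were kept, with median UMIs of 5291 and 5319.5 per cell, and 2 barcodes occurred in both libraries. Each kept cell was given the class of which it held the most distinct marker genes, and no member served as a marker. ILC2 cells numbered 636 in WT and 1150 in the knockout, ILC3 cells 924 and 1075, and ILC1/NK cells 285 and 267. Of these, 94 and 172, 115 and 123, and 88 and 95 cells lay at the limit of the gate, with just 3 markers or a lead of 1 marker. Plasma cells (108 and 151), dendritic cells (33 and 183) and macrophages (69 and 179) were found beside the ILCs. Cells with T cell markers numbered 1063 in WT and 31 in the knockout, so no ratio is given for them. Zfp36 itself, read by 3 prime tags that may lie outside the deleted part, was between 1.47-fold lower in macrophages and 3.66-fold lower in ILC3 cells. The knockout pool held 447 cells with Y-linked and no Xist transcripts and the WT pool 0, so the pools differed in the sex of the mice.

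Levels are given as CPM, the UMIs of a gene per 1000000 UMIs of the cells of a class. With 1 library per genotype there was no replicate and no test, and every interval (95%, in parentheses) covers counting error only, not the spread between mice. Only members with 50 or more UMIs over both libraries were counted, and those that differed by 1.5-fold or more were called higher or lower. A 1.5-fold difference is 0.58 on the log2 scale. The median log2 ratio of knockout over WT over all genes lay above 0 in each class, between 0.12 and 0.24. Ratios are therefore also set against that median.

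In ILC2 cells the GTPases were higher in the knockout library almost throughout, and the type I effectors among the members mostly were not. Of 16 GTPases, 15 were higher and 0 lower, with a median log2 ratio of 0.74. Of the 14 type I effectors with enough UMIs, 2 were higher and 0 lower, with a median of 0.30 beside 0.18 for all genes. Over all members, 19 of 35 were higher and 0 lower, against 16.1% and 3.42% of the 9258 genes tested. With the median of all genes set to 0, 11 of 35 members were higher, among them 7 of 16 GTPases, against 8.67% of all genes.

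All 7 IRG genes were higher in ILC2 cells. Iigp1, which loads onto pathogen vacuoles, had 29.4 CPM in WT (129 UMIs) and 128 CPM in the knockout (929 UMIs), a log2 ratio of 2.12 (1.85 to 2.40) or 4.35-fold. Tgtp2, of the same effector type, had 16.7 and 64.8 CPM (log2 1.96, 1.60 to 2.34). Tgtp1, its near-identical copy, had 10.7 and 27.5 CPM (1.36, 0.90 to 1.85). All 90-base stretches of the last 500 bases of the Tgtp1 and Tgtp2 transcripts occur in both, so their reads cannot be told apart with certainty. Their summed level was 27.4 CPM in WT and 92.4 CPM in the knockout, 3.37-fold apart. Igtp, which keeps effector IRG proteins off the cell's own membranes, had 75.5 and 159 CPM (1.07, 0.89 to 1.25). Its fellow regulators were Irgm2 at 9.81 and 26.0 CPM (1.41, 0.92 to 1.92) and Irgm1 at 46.5 and 72.8 CPM (0.65, 0.41 to 0.89). The annotations of Igtp and Irgm2 overlap on 1 strand, so reads could be split between them. Ifi47 had 108 and 176 CPM (0.71, 0.55 to 0.86).

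The GBP genes differed less, with 8 of 9 higher and a median of 0.70, beside 1.36 for the IRG genes. Gbp2, which acts at pathogen vacuoles, had 95.8 CPM in WT and 192 CPM in the knockout (0.9999, 0.84 to 1.16). Gbp7 had 164 and 271 CPM (0.72, 0.60 to 0.85) and Gbp4 84.0 and 132 CPM (0.66, 0.48 to 0.83). Gbp5, a promoter of inflammasome assembly, had 29.2 and 46.4 CPM (0.67, 0.37 to 0.97). Gbp9 had 33.3 and 54.2 CPM (0.70), Gbp8 52.7 and 80.7 CPM (0.61) and Gbp6 19.2 and 32.3 CPM (0.76). Gbp3, at 19.4 and 25.9 CPM (0.42, 0.04 to 0.80), was the GTPase that missed the 1.5-fold limit. Gbp10 had only 16 and 110 UMIs (2.05, 1.29 to 2.91). All 90-base stretches at the end of its transcript recur in Gbp6 or Gm43302, and Gbp6 and Gbp10 together had 22.8 and 47.5 CPM.

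Among the type I effectors of ILC2 cells, Parp14, an ADP-ribosyltransferase, was higher, at 53.2 and 90.6 CPM (0.77, 0.55 to 0.99). Isg15, a ubiquitin-like modifier, had 154 CPM in WT and 190 CPM in the knockout (0.30, 0.17 to 0.43). Ifit1, which binds foreign RNA, had 13.5 and 13.6 CPM (0.02, -0.46 to 0.51). Ifi35 had 67.1 and 61.0 CPM (-0.14), and Bst2, the surface protein tetherin, 95.8 and 105 CPM (0.13). Oas1a, Oasl1, Oasl2 and Usp18 lay between 0.30 and 0.42, each with an interval that included 0. Isg20 was the lowest of the counted members at -0.40 (-0.80 to 0.01). Ifit2, Ifit3 and Mx1 had too few UMIs to count.

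Stat2, a partner of Irf9 in the complex formed after type I signals, was higher in ILC2 cells, at 16.7 and 29.1 CPM (0.80, 0.41 to 1.21). Irf9 had 48.6 and 68.1 CPM (0.49, 0.25 to 0.73). Irf1, an interferon-induced factor, had 137 and 142 CPM (0.05, -0.10 to 0.20), and Irf7 36.5 and 39.2 CPM (0.10). Irf8 and Ifi27l2a passed the limit on the UMIs of few cells. Irf8 had 15 UMIs in WT and 169 in the knockout, 35.5% of them in 1 cell, and Ifi27l2a 17 and 112, 65.2% of them in 1 cell. Of the gated ILC2 cells, 3 WT and 12 knockout cells lay in clusters of other classes. Without them the log2 ratio of Irf8 was -0.35 and that of Ifi27l2a 0.53, and 15 of 16 GTPases were still higher. With these cells, summed CPM of dendritic cell markers was 4.33 in WT and 26.8 in the knockout, of macrophage markers 24.9 and 60.4, and of plasma cell markers 71.9 and 480. Without them the dendritic cell markers stood at 3.90 and 5.39 CPM and the plasma cell markers at 71.9 and 70.4. T cell markers summed to 1209 CPM in WT and 686 CPM in the knockout ILC2 cells, and their part in the ratios was not tested.

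In ILC3 cells, too, the GTPases had a higher median than the type I effectors. All 7 IRG genes and 4 of 8 GBP genes were higher, so that 11 of 15 GTPases passed 1.5-fold, with a median of 0.71 beside 0.16 for all genes. Of 11 type I effectors 2 were higher, with a median of 0.22. Over all members 16 of 31 were higher and 0 lower, against 15.3% and 4.07% of the 9550 genes tested. With the median of all genes set to 0, 10 of 31 members were higher, among them 7 of 15 GTPases, against 8.37% of all genes.

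Tgtp2 had 12.9 CPM in WT ILC3 cells and 57.9 CPM in knockout ILC3 cells (2.16, 1.74 to 2.60), Tgtp1 8.63 and 28.9 CPM (1.74), and both together 21.6 and 86.8 CPM. Iigp1 had 19.98 and 68.8 CPM (1.78, 1.44 to 2.14), with 43 WT and 164 knockout cells holding a UMI. The regulators Irgm2 (16.6 and 36.7 CPM, 1.15), Igtp (106 and 180 CPM, 0.77) and Irgm1 (40.2 and 62.9 CPM, 0.65) were higher as well. Ifi47 had 92.4 and 142 CPM (0.62). Of the GBP genes, Gbp3 (4.31 and 8.89 CPM, 1.04), Gbp9 (12.5 and 22.3 CPM, 0.84), Gbp5 (17.0 and 27.8 CPM, 0.71) and Gbp6 (14.5 and 22.6 CPM, 0.63) passed the limit. Gbp2 (43.1 and 61.4 CPM, 0.51), Gbp4 (55.6 and 79.0 CPM, 0.51), Gbp7 (97.8 and 129 CPM, 0.39) and Gbp8 (45.4 and 51.6 CPM, 0.19) did not. Gbp10 had 4 and 8 UMIs and was not counted.

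The transcription factors of the ILC3 cells differed from those of the ILC2 cells in which members passed. Irf1 had 121 CPM in WT and 200 CPM in the knockout (0.73, 0.57 to 0.88), Irf9 19.98 and 45.8 CPM (1.196, 0.83 to 1.57) and Stat2 19.1 and 35.8 CPM (0.91, 0.52 to 1.30). Irf8 had 57.4 and 80.7 CPM (0.49) and Irf7 62.4 and 52.9 CPM (-0.24). The difference between ILC2 and ILC3 cells was not tested. Among type I effectors, Parp14 had 61.3 and 101 CPM (0.72), while Ifi35 (54.9 and 54.9 CPM), Isg15 (38.6 and 42.1 CPM, 0.12) and Zbp1 (31.6 and 36.7 CPM, 0.22) lay near the median of all genes. Bst2 had 388 and 327 CPM (-0.25, -0.35 to -0.15). Ifi27l2a had 14 and 39 UMIs, with 84.6% of the knockout UMIs in 1 cell. T cell markers in the ILC3 cells summed to 810 CPM in WT and 501 CPM in the knockout, and their part in the ratios was not tested.

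**Figure D1:**
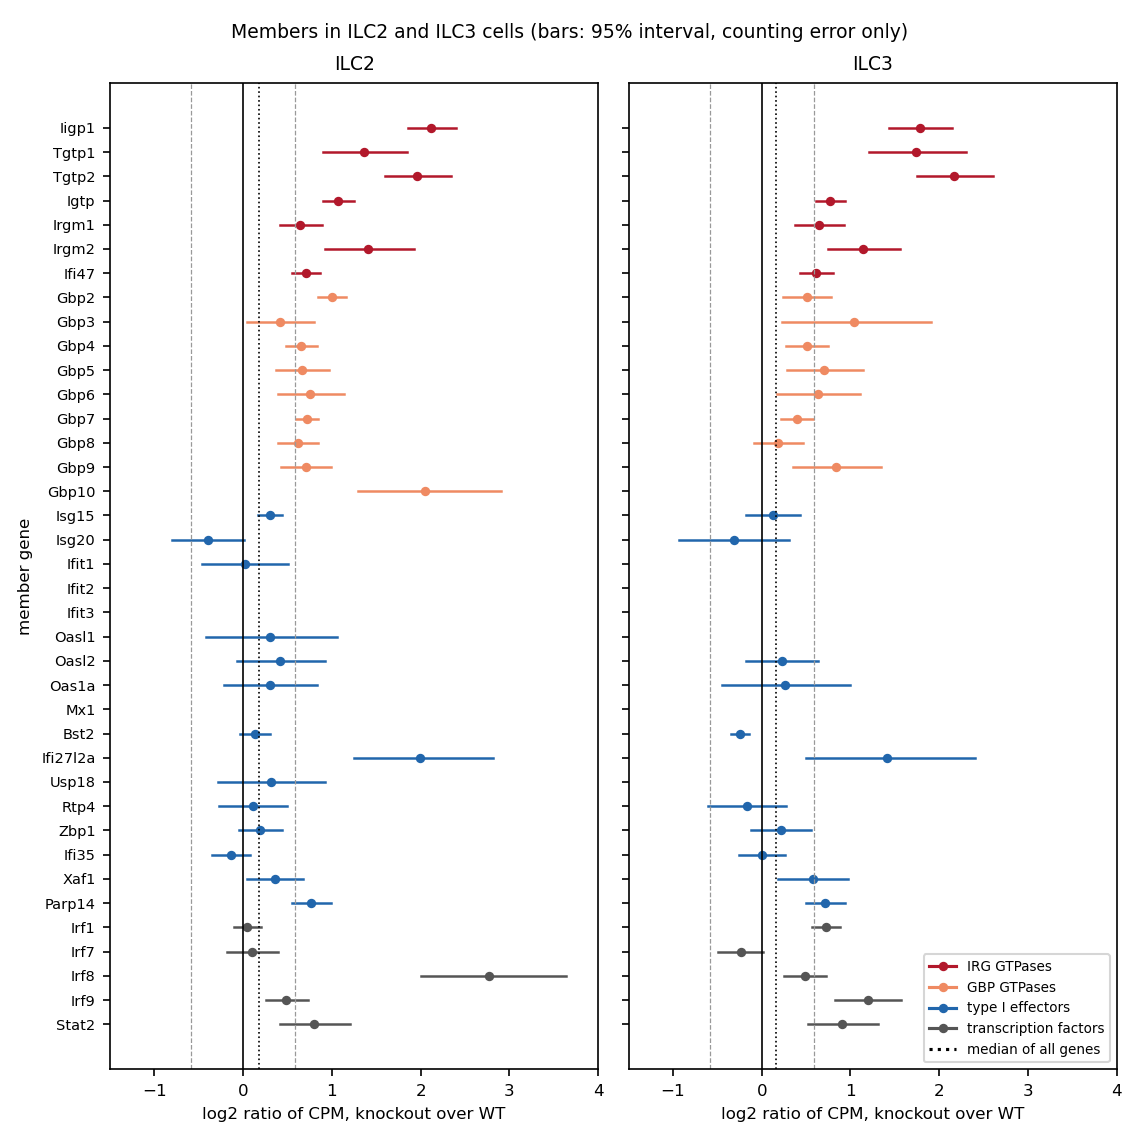
Log2 ratio of CPM, knockout over WT, for each member with at least 50 UMIs in ILC2 (left) and ILC3 cells (right); points are ratios, bars 95% intervals of counting error, the dotted line the median of all genes and dashed lines 1.5-fold in either direction. The IRG genes lie to the right of the upper 1.5-fold line in both classes, from 0.65 to 2.12 in ILC2 cells, while most type I effectors lie near the dotted line.

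ILC3 cells were divided by a UMI of Ccr6, carried by lymphoid tissue inducer-like cells, or of Ncr1, which encodes the receptor NKp46, and cells with both were left out. Among CCR6+ ILC3 cells (399 WT and 298 knockout cells) 15 of 23 members were higher and 0 lower, against 18.0% and 5.47% of all genes. Among NCR+ ILC3 cells (277 and 327) 7 of 27 were higher and 2 lower, against 15.9% and 4.09%. Among ILC3 cells with neither UMI (221 and 409) 11 of 24 were higher and 0 lower, against 19.4% and 4.75%. The GTPase median was 0.96 in CCR6+, 0.44 in NCR+ and 0.71 in the remaining cells, beside 0.15, 0.15 and 0.19 for all genes. Type I medians were 0.01, -0.03 and 0.43, with 3 of 7, 0 of 8 and 2 of 7 type I effectors higher. Of type I targets outside the members, 11 of 17, 3 of 16 and 4 of 12 were higher, against 18.0%, 15.9% and 19.4% of all genes. The differences between subsets were not tested. T cell markers summed to 559 CPM in WT and 341 CPM in the knockout in CCR6+ cells. They summed to 861 and 586 CPM in NCR+ and 1218 and 555 CPM in the remaining cells.

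In CCR6+ ILC3 cells Iigp1 had 6.97 CPM in WT (12 UMIs) and 70.6 CPM in the knockout (84 UMIs), a log2 ratio of 3.34 (2.46 to 4.35). Its WT level there was below that of NCR+ ILC3 cells, at 27.4 CPM (19.9 to 37.0), while the knockout levels were 70.6 (56.3 to 87.4) and 64.0 CPM (52.6 to 77.0), with overlapping intervals. Tgtp2 had 8.71 and 55.5 CPM (2.67) in CCR6+ cells and 15.95 and 64.0 CPM (2.003) in NCR+ cells. Igtp had 42.4 and 111 CPM (1.39) in CCR6+ cells and 182 and 243 CPM (0.41) in NCR+ cells. Thus both the lowest WT levels and the largest ratios of these 3 genes among the ILC3 subsets were in CCR6+ cells. Irf1 (104 and 226 CPM, 1.12), Irf9 (15.7 and 45.4 CPM, 1.53), Stat2 (14.5 and 42.0 CPM, 1.53) and Irf8 (42.4 and 79.0 CPM, 0.90) were higher in CCR6+ cells. Isg15 was also higher there (30.2 and 53.8 CPM, 0.83), as were Parp14 (1.05) and Xaf1 (1.03). In NCR+ cells 25.2% of the knockout Iigp1 UMIs were in 1 cell, and the ratio against WT was -0.76 when only male-type knockout cells were counted. There the 2 lower members were Irf7, at 110 and 66.3 CPM (-0.74, -1.09 to -0.39), and Rtp4, at 23.6 and 14.98 CPM (-0.66, -1.44 to 0.11). Macrophage markers in the CCR6+ cells summed to 80.2 CPM in WT and 725 CPM in the knockout. Without the 3 and 6 cells in clusters of other classes they summed to 78.8 and 60.9 CPM, and 8 of 11 GTPases were higher with or without those cells.

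In ILC1/NK cells 8 of 29 members were higher and 1 lower, against 15.5% and 4.84% of the 6676 genes tested. Of 13 GTPases 7 were higher, with a median of 0.65 beside 0.12 for all genes, and of 11 type I effectors 1 was higher, with a median of -0.02. Gbp2 had 47.7 CPM in WT and 124 CPM in the knockout (1.38, 0.99 to 1.78), Gbp3 22.1 and 57.1 CPM (1.37) and Tgtp2 8.35 and 34.96 CPM (2.07). Iigp1 had 13.1 and 42.8 CPM (1.71, 0.98 to 2.48), and Gbp7 119 and 205 CPM (0.78). Parp14 had 58.5 and 111 CPM (0.92). Irf7, a factor of the type I response, was the lower member, at 97.2 and 55.7 CPM (-0.81, -1.21 to -0.41). Isg15 had 137 and 94.9 CPM (-0.53) and Irgm2 35.2 and 23.5 CPM (-0.58), both short of 1.5-fold.

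The ILC1/NK gate is the least settled of the ILC gates. Of its cells, 124 in WT and 141 in the knockout lay in clusters of another class. Of these, 34 WT and 103 knockout cells were in a cluster divided between ILC2 and ILC1/NK markers, 59.8% of whose gated cells were ILC2. In the gated cells plasma cell markers summed to 1582 CPM in WT and 67.8 in the knockout. T cell markers summed to 1751 and 787 CPM, and their part in the ratios was not tested. In the 161 WT and 126 knockout cells for which gate and cluster agreed, plasma cell markers stood at 78.4 and 63.4 CPM. T cell markers in these cells stood at 1032 and 768 CPM. There 7 of 11 GTPases and 4 of 8 type I effectors were higher, with medians of 0.88 and 0.55, against 18.0% of the 4485 genes tested and a median of 0.14 over them. The median of the type I effectors in ILC1/NK cells thus depended on which cells were counted, and that of the GTPases less so.

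Clusters built without the members gave a view of how even the GTPase difference was within a class. Among ILC2 cells, 12 of 16 GTPases were higher in the larger cluster (318 WT and 750 knockout cells, median 0.79) and 13 of 15 in a smaller one (198 and 243 cells, 0.94), against 15.5% and 18.7% of all genes. In the divided cluster 1 of 7 was higher (104 and 116 cells, 0.25), against 19.7%. Among ILC3 cells, 11 of 14 were higher in the larger cluster (600 and 731 cells, 1.19) and 6 of 14 in the other (305 and 319 cells, 0.53), against 18.3% and 15.6%. Type I medians in the same 5 clusters were 0.30, 0.32, -0.43, 0.37 and -0.03, and those of all genes 0.15, 0.16, 0.18, 0.19 and 0.15.

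Counted per cell, GTPase transcripts were spread over many ILC2 cells. At an equal depth of 2000 UMIs per cell, 69.7% of WT (65.9 to 73.3%) and 89.2% of knockout ILC2 cells (87.3 to 91.0%) had at least 1 UMI of any of the 16 GTPases. At least 5 UMIs were found in 5.40% of WT (3.77 to 7.46%) and 22.0% of knockout cells (19.6 to 24.5%). For the 17 type I effectors the shares with 5 or more were 3.02% and 3.68%, with overlapping intervals. With at least 1 type I UMI there were 58.3% of WT (54.3 to 62.1%) and 68.3% of knockout ILC2 cells (65.5 to 71.0%). Type I shares with at least 1 UMI in ILC3 cells were 67.1% and 70.6%, with overlapping intervals. In ILC3 cells 57.6% of WT and 73.9% of knockout cells had a GTPase UMI, and 2.66% and 8.16% had 5 or more. The shares leave out 6 WT and 10 knockout ILC2 cells and 21 and 46 ILC3 cells of lower depth. Plasma cells, the class with the fewest GTPase UMIs at this depth, had 22.2% in WT and 15.3% in the knockout.

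**Figure D2:**
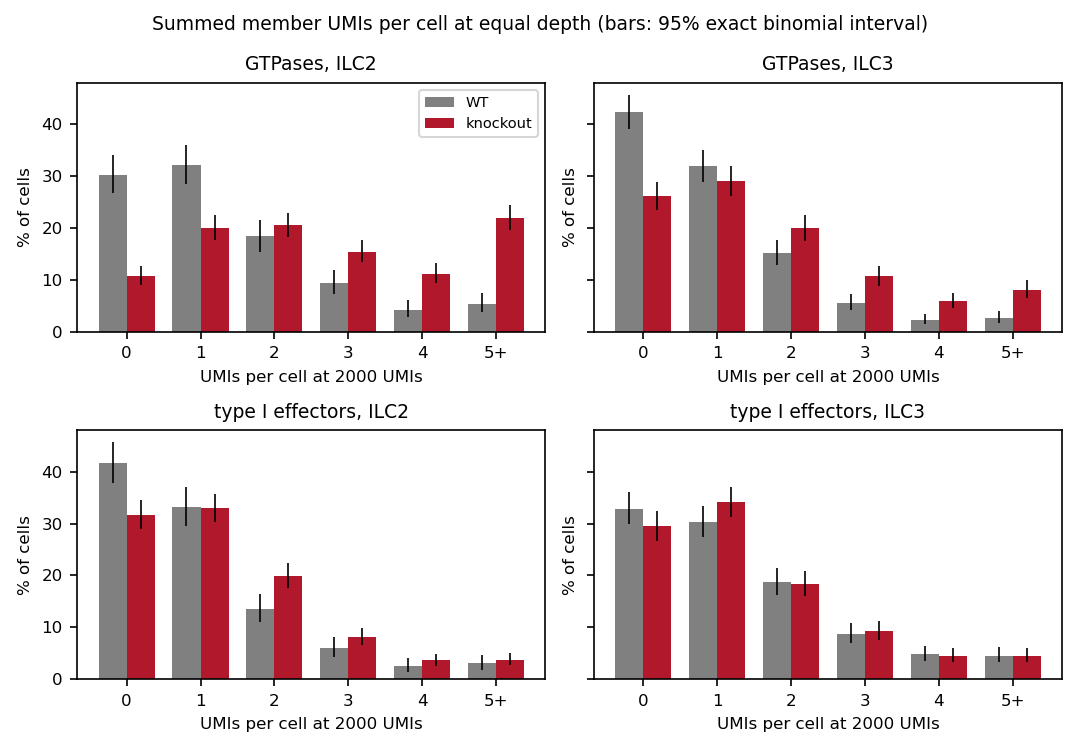
Share of cells (y axis, in %) by the number of summed UMIs per cell (x axis) after thinning to 2000 UMIs, for GTPases (top) and type I effectors (bottom) in ILC2 (left) and ILC3 cells (right); grey bars are WT, red bars knockout, and lines 95% exact binomial intervals. For GTPases the knockout has fewer cells at 0 and more at 5 or above, 22.0% against 5.40% in ILC2 cells. For type I effectors the ILC2 shares are 31.7% against 41.7% at 0, and 3.68% against 3.02% at 5 or above.

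Single genes gave the same picture with lower shares. At 2000 UMIs, Iigp1 was found in 3.65% of WT ILC2 cells (2.33 to 5.43%) and 18.5% of knockout ILC2 cells (16.3 to 20.9%). Without thinning the shares were 11.2% and 33.2%. In plasma cells, 0 of 108 WT and 0 of 150 knockout cells had an Iigp1 UMI at this depth. Gbp2 was found in 16.5% of WT and 27.5% of knockout ILC2 cells, beside 2.78% and 1.33% of plasma cells. Without thinning, Gbp2 was in 40.1% and 55.0% of ILC2 cells and 16.7% and 10.6% of plasma cells. Unthinned Igtp was in 30.7% and 53.1% of ILC2 cells and 37.0% and 35.8% of plasma cells. The median depth of gated cells was 6316.5 UMIs in WT and 5824 in knockout ILC2 cells, and 39543 and 31195 in plasma cells.

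Cells with Y-linked transcripts let part of the knockout pool be read apart from the rest, since such cells came from other mice than cells with Xist. In ILC2 cells Iigp1 stood at 29.4 CPM in WT, 121 CPM in the 905 female-type knockout cells and 170 CPM in the 180 male-type knockout cells. Gbp2 stood at 95.8, 182 and 238 CPM, and Gbp7 at 164, 263 and 292 CPM. Isg15 had 154, 188 and 188 CPM, Ifit1 13.5, 12.3 and 14.9 CPM and Parp14 53.2, 89.6 and 99.7 CPM. Against WT, 14 of 16 GTPases were higher in the female-type cells and 15 of 15 in the male-type cells, against 15.8% and 18.4% of all genes. In ILC3 cells 8 of 14 were higher in the 842 female-type cells and 12 of 14 in the 137 male-type cells, against 14.4% and 19.5%. These 2 sets of cells are not replicates, as the number of mice behind each is not known, and the male-type cells have no WT cells of their kind beside them.

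**Figure D3:**
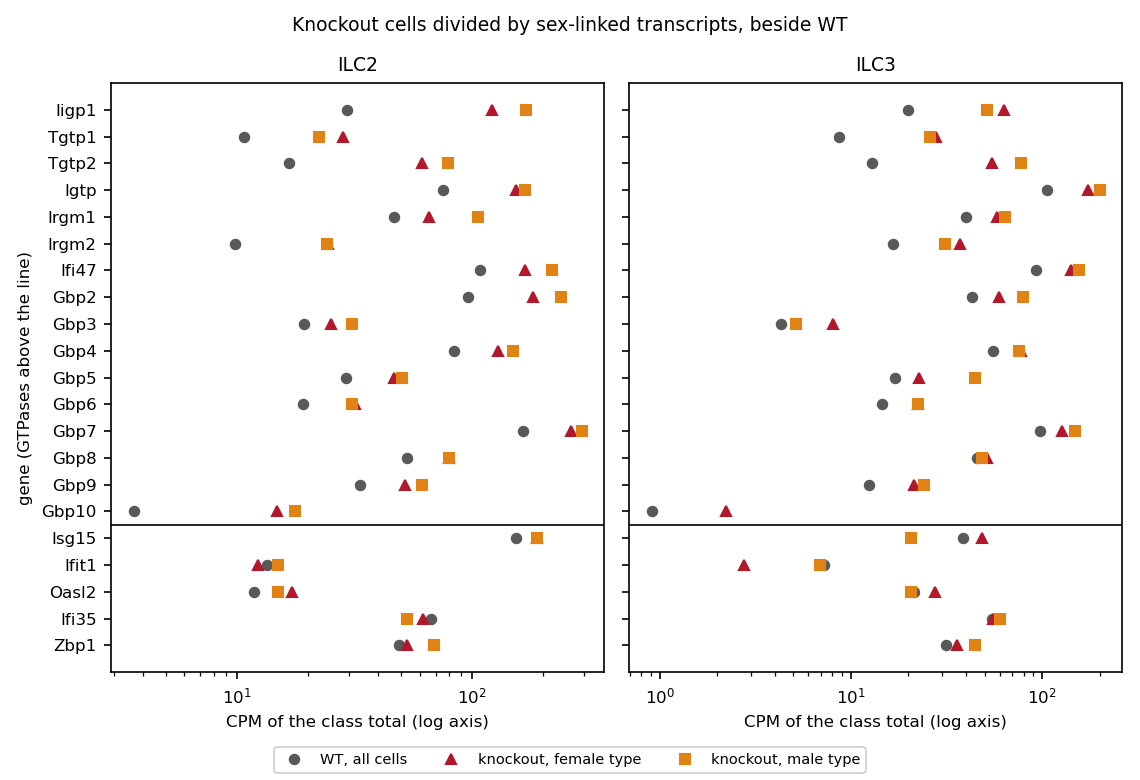
CPM (log axis) of the 16 GTPases and 5 of the 17 type I effectors in ILC2 (left) and ILC3 cells (right). The 5 are Isg15, Ifit1, Oasl2, Ifi35 and Zbp1, which were not picked by a stated rule, and Parp14 is not drawn. Grey circles are all WT cells, red triangles female-type knockout cells and orange squares male-type knockout cells. For each GTPase the 2 knockout symbols lie to the right of the WT circle in ILC2 cells, as for Iigp1 at 121 and 170 against 29.4 CPM, while Ifit1 has 12.3 and 14.9 against 13.5 CPM. A level of 0 is not drawn.

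Outside the ILC classes, most counted GTPases were higher in macrophages and dendritic cells of the knockout library, and few were in plasma cells. In macrophages 17 of 33 members were higher and 0 lower, against 18.7% and 7.16% of all genes, with 8 of 13 GTPases (median 1.14) and 6 of 15 type I effectors (median 0.45). The higher GTPases were 6 of 6 IRG genes (median 1.33) but only 2 of 7 GBP genes (median 0.51). Without the cell richest in each gene in each library, 24 of 33 members and 12 of 15 type I effectors were higher, against 25.7% of all genes. Gbp2 had 47.4 CPM in WT macrophages and 296 CPM in knockout macrophages (2.64, 2.13 to 3.20). Iigp1 had 5.93 CPM in WT, from 4 UMIs, and 71.5 CPM in the knockout (3.59, 2.21 to 5.48). Tgtp1 and Tgtp2 together had 2 UMIs in WT and 134 in the knockout, 15.3-fold apart on the CPM scale, with a log2 interval from 2.06 to 6.998. Type I effectors higher in macrophages included Rtp4 (25.2 and 63.0 CPM, 1.32), Oasl2 (40.0 and 89.8 CPM, 1.17) and Parp14 (69.6 and 150 CPM, 1.11). Isg15 had 207 and 209 CPM (0.01) and Ifit2 26.7 and 26.8 CPM (0.01). The sum of macrophage markers was 24296 CPM in WT and 15235 in the knockout, that of plasma cell markers 97.8 and 1678, and that of T cell markers 1167 and 183, and their part in these ratios was not tested.

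Dendritic cells had 18 of 29 members higher and 1 lower, against 20.5% and 8.27% of all genes, but only 33 WT cells stood behind the comparison. Of 10 GTPases 9 were higher (median 1.71) and of 14 type I effectors 7 (median 0.76). Gbp2 had 38.9 and 232 CPM (2.58, 2.04 to 3.18), Gbp7 38.9 and 157 CPM (2.02) and Gbp3 27.8 and 97.3 CPM (1.81). Oasl2 had 8.34 CPM in WT, from 6 UMIs, and 56.4 CPM in the knockout (2.76, 1.61 to 4.22). Irf8, which cross-presenting dendritic cells need for their development, was lower, at 940 and 284 CPM (-1.73, -1.87 to -1.59). The markers Xcr1 (193 and 25.2 CPM) and Clec9a (104 and 18.9 CPM) of those cells were lower too, while Plet1 had 253 and 1184 CPM. A different mix of dendritic cell types and a different level per cell cannot be told apart from these sums.

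In plasma cells 2 of 23 members were higher and 6 lower, against 24.3% and 4.02% of all genes. Gbp4 (11.4 and 24.8 CPM, 1.13) and Gbp8 (5.08 and 8.42 CPM, 0.73) were the higher ones. Ifi27l2a, a small interferon-induced mitochondrial protein, had 286 CPM in WT and 97.2 CPM in the knockout (-1.55, -1.71 to -1.40). Gbp2 had 8.22 and 3.46 CPM (-1.25, -2.21 to -0.35), Ifi47 10.6 and 4.75 CPM (-1.16) and Xaf1 8.94 and 4.32 CPM (-1.05). Irf8 (15.5 and 8.86 CPM, -0.80) and Irf7 (11.4 and 7.56 CPM, -0.59) were lower as well, but the ratio of Irf8 was 0.27 without the richest cell of each library. T cell markers in the gated plasma cells summed to 105 CPM in WT and 8.86 in the knockout, and their part in the lower values was not tested. Iigp1, Tgtp1, Tgtp2 and Gbp10 had at most 6 UMIs in either library.

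**Figure D4:**
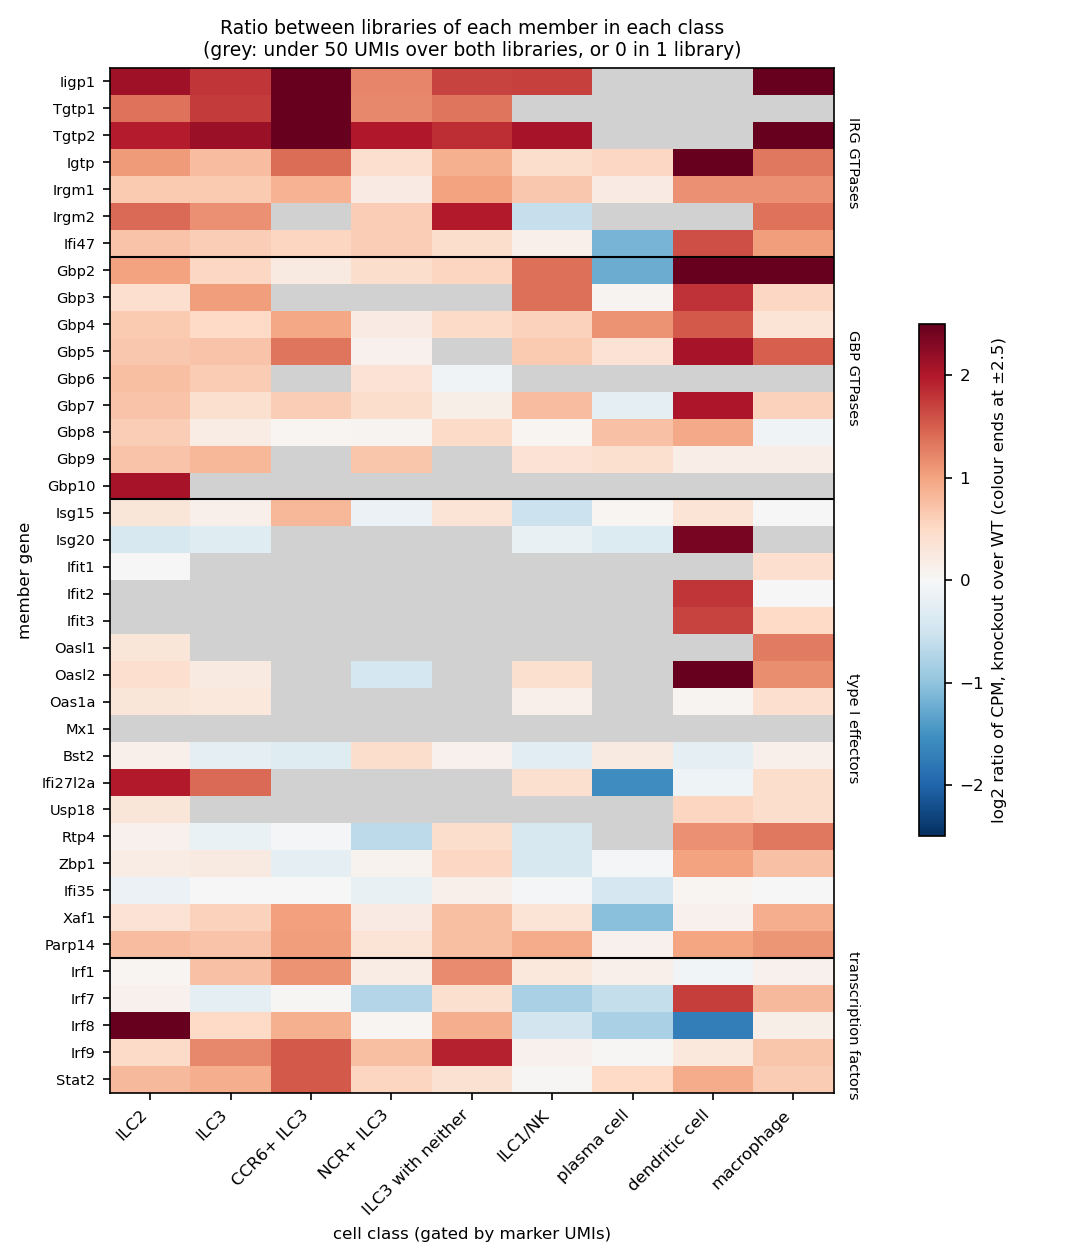
Log2 ratio of CPM, knockout over WT, for the 38 members (rows, grouped by kind) in 9 cell classes (columns); red is higher and blue lower in the knockout, colours end at 2.5 in either direction, and grey cells had under 50 UMIs or 0 UMIs in 1 library. Red fills most of the GTPase rows in ILC2, dendritic cell and macrophage columns (Gbp2 at 0.9999, 2.58 and 2.64), and blue appears in plasma cells (Gbp2 at -1.25).

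The order of the classes by level changed between the libraries. Iigp1 in WT was highest in T cells (38.8 CPM, 33.9 to 44.1), ILC2 (29.4, 24.6 to 34.97) and NCR+ ILC3 cells (27.4, 19.9 to 37.0), and each interval overlapped the next. ILC3 cells with neither UMI (22.6, 14.00 to 34.6) and ILC1/NK cells (13.1, 8.23 to 19.9) followed, and the interval of the former overlapped those of NCR+ ILC3 and ILC1/NK cells. It was lower in CCR6+ ILC3 cells (6.97) and macrophages (5.93). It was at 0 UMIs in dendritic cells and 1 UMI in plasma cells. In the knockout it was highest in ILC2 cells (128, 120 to 136), and ILC3 cells with neither UMI (72.5), macrophages (71.5, 62.2 to 81.8), CCR6+ ILC3 cells (70.6) and NCR+ ILC3 cells (64.0) followed with overlapping intervals, with ILC1/NK cells at 42.8 and dendritic cells at 8.09 CPM. Gbp2 in WT was highest in ILC2 cells (95.8) and T cells (92.0), with overlapping intervals, and macrophages had 47.4 CPM. In the knockout, macrophages (296, 277 to 316) and dendritic cells (232, 218 to 248) came before ILC2 cells (192, 182 to 202). The 31 knockout T cells had 69.3 CPM of Iigp1 (38.8 to 114), from 15 UMIs, and 102 CPM of Gbp2 (63.7 to 154).

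Other genes of the interferon pathway showed where members of the signal chain stood. Of the receptor genes, 0 of 5 were higher in ILC2 cells and 0 of 5 in ILC3 cells, against 16.1% and 15.3% of all genes, and none of them was lower. Ifngr1, the ligand-binding chain for interferon-gamma, had 179 and 160 CPM in ILC2 cells (-0.16) and 894 and 703 CPM in ILC3 cells (-0.35, -0.41 to -0.28). Ifnar1, a chain of the type I receptor, had 118 and 128 CPM in ILC2 cells (0.12).

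Ifng, the gene of interferon-gamma, had ratios that differed between the ILC classes. It had 21.7 CPM in WT and 25.6 CPM in knockout ILC2 cells (0.24, -0.12 to 0.61). ILC3 cells had 34.3 and 8.68 CPM (-1.98, -2.52 to -1.47), with most of their Ifng UMIs in NCR+ cells (137 of 151 in WT and 33 of 40 in the knockout). ILC1/NK cells, its main source by CPM among the ILC classes, had 274 and 406 CPM (0.57, 0.39 to 0.75), just short of 1.5-fold. Ifnb1 had 0 UMIs in both libraries in ILC2, ILC3 and ILC1/NK cells. The WT library held 1063 cells with T cell markers and the knockout library 31, with 1415 and 9 Ifng UMIs (238 and 41.6 CPM). Other sources of interferon in the tissue were not sampled, and the part of Ifng in the GTPase ratios was not tested.

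Of the other interferon-gamma type targets, 5 of 12 were higher and 1 lower in ILC2 cells, against 16.1% and 3.42% of all genes. In ILC3 cells 6 of 13 were higher and 1 lower, against 15.3% and 4.07%. F830016B08Rik, which lies on chromosome 18 beside Iigp1, had 5 UMIs in WT and 240 in knockout ILC2 cells (4.86, 3.61 to 6.49). Gm4951, from the same stretch, had 2 and 84 UMIs (4.66, 2.77 to 7.73). In ILC3 cells Ly6a, which encodes the surface protein Sca-1, had 9.76 and 273 CPM (4.81, 4.37 to 5.28). The lower gene in ILC2 cells was Cxcl10, a chemokine gene, at 182 and 87.6 CPM (-1.06, -1.21 to -0.90). In ILC3 cells Cxcl10 had 99.0 and 39.5 CPM (-1.33), with 44.3% of the WT UMIs in 1 cell. Without the richest cell of each library, an alternative chosen after seeing the data, the log2 ratio was -0.68 there and -0.90 in ILC2 cells. In ILC1/NK cells Cxcl10 had 62.1 and 192 CPM (1.63, 1.30 to 1.97). Of the other type I targets, 8 of 22 were higher in ILC2 cells, 7 of 22 in ILC3 cells and 21 of 25 in macrophages, against 16.1%, 15.3% and 18.7% of all genes. Medians of the other interferon-gamma type and other type I targets were 0.45 and 0.44 in ILC2, 0.58 and 0.455 in ILC3 and 0.40 and 0.40 in ILC1/NK cells. They were 0.95 and 0.73 in CCR6+, -0.12 and 0.39 in NCR+ and 0.37 and 0.43 in the remaining ILC3 cells. Dendritic cells had 0.06 and 0.78, macrophages 0.34 and 0.82, and plasma cells 0.03 and 0.15. Ifitm1, a membrane protein against virus entry, had 2 and 207 UMIs in ILC3 cells (6.63, 4.76 to 9.68) and 4 and 51 UMIs in ILC2 cells (2.94, 1.4996 to 4.87). Without the richest cells the log2 ratio of Ifitm1 was 5.18 and 1.60, with the WT libraries at the floor.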

How the data were processed

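Single-cell 3 prime libraries of 1 WT and 1 Zfp36-/- pool of 4 mice each were used. The deposited values are raw UMI counts per gene and barcode, made by the authors with Cell Ranger 3.1.0 per the file headers and build mm10 per the submitters' processing notes; the annotation release is not given in the sources used here. Barcodes with fewer than 500 genes or over 10% mitochondrial UMIs were removed, as were doublets called by Scrublet in scanpy 1.11.5 (45 WT and 37 knockout). A kept cell took the class with the most distinct markers, if at least 3 were found and no class tied, and 218 WT and 255 knockout cells had no class. UMIs were summed per class, which needed at least 30 cells in each library. Intervals of CPM are exact Poisson intervals, those of ratios come from the exact split of UMIs between libraries, and those of shares are Clopper-Pearson, all at 95%. A library at 0 was set to a floor of 3 counts. The computation was tested on simulated data.

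The members, gene lists and rules were chosen with earlier results of these data known. A rule picked the genes to name, first the IRG and GBP genes in ILC2 and ILC3 cells. It added up to 8 members per class past 1.5-fold by the end of the interval nearest 0. For other pathway genes it picked the receptors, ligands and 3 largest ratios per class. Not all genes so picked are printed. The other pathway genes of dendritic cells, macrophages and plasma cells appear only as medians or counts. Members named beside these were chosen after their values were seen. Alternatives concerned the gate, clusters (leidenalg 0.10.2), cell filters, scaling, cell weights, UMI minimum, fold and mice. One gene of the lists is not reported here. Promoter windows are from RefSeq and transcript ends from GENCODE M21.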

Additional observations from a re-analysis of the deposited data

Results flagged for a closer look

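For 6 members the ratio pointed one way in 1 class and the other way in another, each past 1.5-fold with an interval that left out 0. The difference between the classes was not tested, since each class had 1 library per genotype. Ifi47 had a log2 ratio of 1.61 in dendritic cells and -1.16 in plasma cells. Gbp2 had 2.64 in macrophages and -1.25 in plasma cells. Xaf1 had 0.90 in macrophages and -1.05 in plasma cells. Ifi27l2a had 1.99 in ILC2 cells, where 65.2% of the knockout UMIs were in 1 cell, and -1.55 in plasma cells. Irf7 had 1.73 in dendritic cells, where 41.3% of the knockout UMIs were in 1 cell, and -0.81 in ILC1/NK cells. In the ILC1/NK cells for which gate and cluster agreed, Irf7 had -0.51 (-1.03 to -0.01), short of 1.5-fold. Irf8 had 2.77 in ILC2 cells, where 35.5% of the knockout UMIs were in 1 cell, and -1.73 in dendritic cells. There a different mix of dendritic cell types and a different level per cell cannot be told apart.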

How the results depend on the processing

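No paired analysis was possible because each genotype had 1 library and the labels give no replicate numbers. Cells outside the divided cluster, and cells with gate and cluster of the same class, were alternatives chosen after seeing the data. Counts are of members called higher or lower among those counted, with the share of all genes called the same way in parentheses.

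With classes by cluster, 1 of 35 members was lower in ILC2 (4.59%) and 1 of 30 in ILC3 cells (4.12%). In ILC1/NK cells 13 of 23 were higher (17.7%), and the median of the type I effectors there was 0.54. With the median of all genes set to 0, 11 of 35 were higher in ILC2 (8.67%, GTPases median 0.56) and 10 of 31 in ILC3 cells (8.37%). So were 4 of 27 in NCR+ ILC3 (9.34%) and 1 of 23 in plasma cells (12.5%). In ILC1/NK cells 3 of 29 were lower (7.98%). At 2-fold, 8 of 35 were higher in ILC2 (3.52%), 7 of 31 in ILC3 (3.25%) and 3 of 27 in NCR+ ILC3 cells (3.29%). Also higher were 7 of 24 in ILC3 cells with neither UMI (4.95%). In ILC1/NK cells 4 of 29 were higher (3.39%) and in plasma cells 1 of 23 (7.17%). Lower at 2-fold were 0 of 27 in NCR+ ILC3 (0.926%) and 0 of 29 in ILC1/NK cells (1.24%). Without the richest cell, lower members numbered 1 of 31 in ILC3 (4.24%), 1 of 27 in NCR+ ILC3 (4.26%) and 2 of 29 in ILC1/NK cells (5.32%). With a minimum of 20 UMIs they numbered 1 of 33 (5.6%), 4 of 30 (5.92%) and 2 of 35 (7.1%) in these classes. In dendritic cells they numbered 2 of 35 (11.2%). With a minimum of 200 UMIs, 4 of 6 were higher in CCR6+ ILC3 (12.9%) and 1 of 10 in NCR+ ILC3 cells (11.6%). In ILC3 cells with neither UMI 2 of 5 were higher (14.4%) and in ILC1/NK cells 3 of 12 (11.9%). In plasma cells 0 of 5 were higher (19.6%) and in dendritic cells 8 of 15 (18.1%). At this minimum 1 of 10 was lower in NCR+ ILC3 (3.32%) and 1 of 5 in plasma cells (2.62%). With male-type knockout cells, 6 members were higher in CCR6+ ILC3, 5 in ILC3 cells with neither UMI and 5 in dendritic cells, and 2 were lower in ILC3 and 1 in CCR6+ ILC3 cells. With female-type cells, 1 of 26 was lower in NCR+ ILC3 (4.45%) and 2 of 29 in ILC1/NK cells (4.84%). In plasma cells 1 of 21 was higher (24.3%). A gate with a lead of 2 markers gave 1 of 26 lower in NCR+ ILC3 (4.36%) and 3 of 26 in ILC1/NK cells (5.37%). Equal weight of cells gave 1 of 27 (4.24%) and 3 of 29 (6.25%) lower in the same 2 classes. In plasma cells it gave 1 of 23 higher (28.6%) and 3 of 23 lower (4.68%). All barcodes gave 7 of 23 higher in plasma cells, near the share of all genes (26.1%). Gate and cluster of the same class gave 0 of 23 lower (5.73%) and a median of type I effectors of 0.55 in ILC1/NK cells. It gave 3 of 22 lower in plasma cells (3.9%) and 1 of 31 in macrophages (8.57%). Fewer UMIs per gene and stricter folds leave fewer members to call; for the other settings the cause was not tested.

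Directions that turned were those of Irf8 in ILC2 cells (-0.88 with male-type cells, -0.35 with gate and cluster of the same class) and of Ifi27l2a in ILC2 cells (-3.23 with classes by cluster, -2.06 with male-type cells). They also turned for Iigp1 (-0.76) and Gbp9 (-0.24) in NCR+ ILC3 cells with male-type cells. In plasma cells Irf8 turned to 0.58 with classes by cluster, 0.10 with all barcodes, 0.27 without the richest cell and 0.55 with gate and cluster of the same class. The male-type comparison gave no value in ILC1/NK cells, plasma cells and macrophages, and the gate with a lead of 2 gave none in dendritic cells, where fewer than 30 cells were left. In the ILC classes Ifit2, Ifit3 and Mx1 had under 50 UMIs over both libraries and could not be called.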
